A study of Mus musculus with 8 samples.

Results

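The miR-200 family and the miR-183 cluster comprise 8 mouse microRNA genes, Mir200a, Mir200b, Mir200c, Mir141, Mir429, Mir182, Mir183 and Mir96. They were taken by gene name from the 2207 genes of biotype miRNA in a deposited table of 54532 genes, and they were chosen by their footprint counts per library, which were known beforehand. Of these 8 genes, 7 had at least 1 footprint count and 6 passed the filter on low counts, which Mir141 and Mir429 did not. Of all microRNA genes, 512 had a count and 181 passed. The groups were 4 footprint libraries labelled Nsun5 knockout (KO) and 4 labelled wild type (WT), made from whole brain of 3-month-old male mice, and the mRNA libraries carry the same 8 names. Ribosome profiling reads the stretches of RNA that a ribosome covers and so protects from nuclease digestion, and Nsun5 methylates a cytosine of ribosomal RNA. The protocol takes the mice of both genotypes, 5 of each, from 1 litter, and describes the knockout no further. Which animal gave which library is not labelled, so a p-value measures only the spread between these libraries, which may be technical.

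MicroRNAs are short RNAs cut from hairpin precursors and held by Argonaute proteins, which they guide to messenger RNAs that match their seed, the bases 2 to 8 from the 5′ end. They are not translated, so a microRNA count in a footprint library is not a measure of ribosomes. The miR-200 family is known from epithelia, where it represses Zeb1 and Zeb2, transcription factors that switch off epithelial genes. The miR-183 cluster is known from sensory cells, including photoreceptors, hair cells of the ear and sensory neurons, and changes in the seed of miR-96 cause deafness in humans and mice. Mucl2, a mucin-like secreted protein, and Obp1a, an odorant-binding protein, are products of nasal and other exocrine glands and served here as a measure of gland content.

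The mature sequences are shown because the members fall into groups by seed, which decides the targets they share. They are the RefSeq sequences of build GRCm38.p6 for the arm known as the main product, 5′ to 3′, with the seed in capitals.
mmu-miR-200a-3p: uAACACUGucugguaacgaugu
mmu-miR-141-3p: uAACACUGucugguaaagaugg
mmu-miR-200b-3p: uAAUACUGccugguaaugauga
mmu-miR-200c-3p: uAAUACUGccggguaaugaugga
mmu-miR-429-3p: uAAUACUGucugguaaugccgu
mmu-miR-182-5p: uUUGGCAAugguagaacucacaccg
mmu-miR-96-5p: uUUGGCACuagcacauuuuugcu
mmu-miR-183-5p: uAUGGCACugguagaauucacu

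Counted from 1 at the 5′ end, the seed that miR-200a shares with miR-141 differs from that of miR-200b, miR-200c and miR-429 by C4U. The miR-182 seed differs from the miR-96 seed by A8C, and the miR-183 seed from the miR-96 seed by A2U. Over 22 aligned bases, miR-200b and miR-200c differ at 2 positions, as do miR-200a and miR-141. The counts are per hairpin gene, so the arms cannot be separated. How reads shared by near-identical members were assigned is not given in the sources used here, and the split of counts between Mir200b and Mir200c is uncertain to that extent.

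All 8 hairpins lie on the minus strand, at 3 places in the mm10 coordinates of the deposited table. Mir429 (chr4:156053905-156053987), Mir200a (chr4:156054896-156054985) and Mir200b (chr4:156055681-156055750) lie 908 and 695 bases apart. They fall inside the spans of Ttll10, a protein-coding gene with 10 mRNA counts over the 8 mRNA libraries, and of the noncoding Gm13648 with 2, both on the minus strand. Mir141 (chr6:124717914-124717985) and Mir200c (chr6:124718322-124718390) lie 336 bases apart inside the span of the noncoding Gm15884, which had 5 mRNA counts. Mir182 (chr6:30165918-30165992), Mir96 (chr6:30169446-30169551) and Mir183 (chr6:30169668-30169737) lie 3453 and 116 bases apart and overlap no other gene of the table. Within 20 kb of them lie Nrf1, with 2172 mRNA counts, and Rncr4, a noncoding RNA known from retina, which had 0 counts in both kinds of library. Exon boundaries of the overlapping genes are not in the table, so whether a hairpin is exonic or intronic is not stated here.

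The footprint libraries held 586392 to 1296876 gene-assigned counts in KO and 1201263 to 3493841 in WT, and the mRNA libraries 15642086 to 17829523. MicroRNAs took 24.6% to 60.3% of the footprint counts in KO and 23.0% to 55.0% in WT. Levels below are CPM, counts per 1000000 of the library size scaled by the trimmed mean of M values (TMM), a method that balances most genes between libraries. The TMM factors ran between 0.676 and 1.49 in KO and between 0.799 and 1.50 in WT, so the microRNA scale depends on them. Brain markers were present in all footprint libraries: Snap25, of synapses, had 1010 to 1350 CPM in KO and 1060 to 1650 in WT, and Mbp, of myelin, had 160 to 194 CPM in KO and 186 to 234 in WT. Nsun5 had 102, 124, 83 and 110 mRNA counts in KO libraries 1 to 4, against 91, 82, 103 and 109 in WT libraries 1 to 4 (edgeR quasi-likelihood test, adjusted p = 0.801). Its mRNA therefore did not set the groups apart, and KO and WT are used here as the labels give them.

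The members that passed the filter were highest in KO library 1, and for each of them the KO and WT libraries overlapped. All members together took 1.24% of the footprint counts in KO library 1, against 0.0595% to 0.318% in the 7 other libraries. In these whole-tissue libraries, a different number of cells of a type and a different amount of RNA per cell cannot be told apart. Each KO and WT comparison of members below is a description with no test, since footprint values had been used to pick them.

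Mir200a had 3235, 47.5, 359 and 171 CPM in KO libraries 1 to 4, against 165, 99.9, 202 and 685 CPM in WT libraries 1 to 4. KO library 1 was the highest and KO library 2 the lowest of all 8, and the groups overlapped. The means were 953 ± 1526 CPM in KO and 288 ± 268 CPM in WT (SD, n = 4 each).

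Mir200b, its neighbour with the other seed, had 2602, 13.4, 619 and 71.1 CPM in KO libraries 1 to 4, against 270, 43.4, 110 and 213 CPM in WT libraries 1 to 4. Its highest library exceeded its lowest 194-fold, and both were KO libraries. The means were 826 ± 1215 CPM in KO and 159 ± 102 CPM in WT (SD, n = 4 each).

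Mir200c, from the chromosome 6 pair, was high in a library of each group. It had 662, 13.9, 115 and 24.0 CPM in KO libraries 1 to 4, against 514, 8.20, 12.2 and 27.7 CPM in WT libraries 1 to 4. KO library 1 and WT library 1 stood above the other 6. Mir141, whose hairpin lies beside that of Mir200c, followed it in WT library 1 only at a low level: it had 5, 4, 0 and 1 counts in KO libraries 1 to 4, against 34, 4, 2 and 0 counts in WT libraries 1 to 4.

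Mir429 had 0 of 14807370 footprint counts, which allows up to 0.201 CPM over all libraries, and 0.911 to 5.64 CPM within a library. It is encoded 908 bases from Mir200a, which had 6216 footprint counts. Limits from a count of 0, like the intervals below, cover counting error only.

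Mir182 was the member with the highest level per length, with a median of 10340 RPKM, the authors' read values scaled by gene length and library size, over the 8 libraries. It had 5379, 317, 1227 and 772 CPM in KO libraries 1 to 4, against 792, 835, 245 and 801 CPM in WT libraries 1 to 4. The WT libraries were close together except library 3, and the means were 1924 ± 2333 CPM in KO and 668 ± 283 CPM in WT (SD, n = 4 each).

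Mir183 had 6259, 70.2, 1159 and 247 CPM in KO libraries 1 to 4, against 242, 136, 163 and 377 CPM in WT libraries 1 to 4. KO libraries 1 and 3 lay above every WT library, and KO library 2 below every WT library. The means were 1934 ± 2923 CPM in KO and 230 ± 108 CPM in WT (SD, n = 4 each). Mir96, the gene linked to deafness, had 182, 18.6, 24.5 and 39.4 CPM in KO libraries 1 to 4, against 56.5, 32.2, 11.1 and 7.01 CPM in WT libraries 1 to 4.

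By median RPKM, which divides by hairpin length, Mir182 came first. Then followed Mir183 (3421), Mir200b (2245), Mir200a (2027), Mir200c (366), Mir96 (261), Mir141 (14.8) and Mir429 (0). Neighbours in this order had overlapping ranges over the libraries. The division lowers members with long hairpins, although the mature sequences are of similar length. Mir200a, with a hairpin of 90 bases, had more footprint counts over all libraries than Mir200b, with 70 bases (6216 against 4121). In the mRNA libraries all 8 members had 0 of 133677669 counts.

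**Figure D1:**
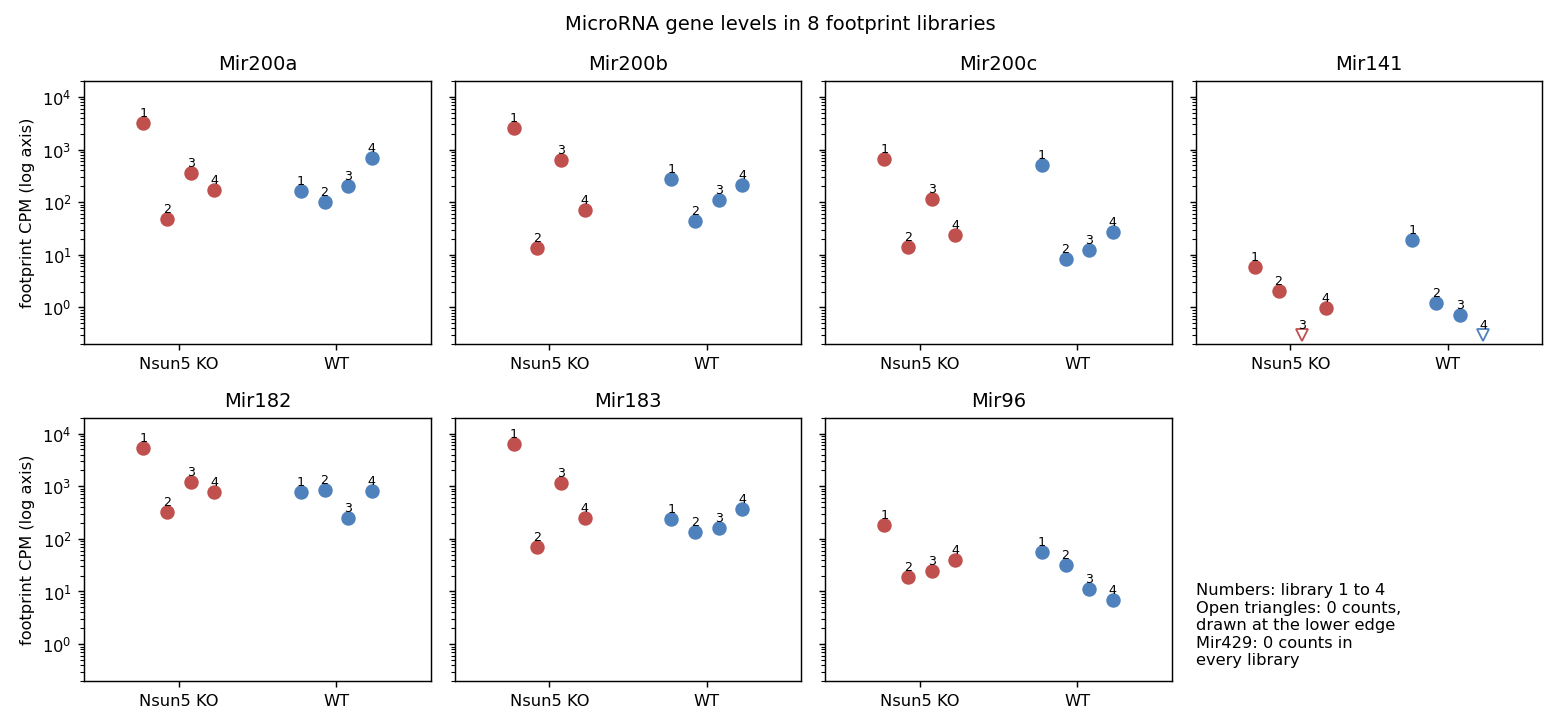
Footprint CPM of the members (log axis) in each library, with KO libraries left of WT libraries and 1 point per library. Open triangles at the foot of the axis are libraries with 0 counts. KO library 1 was the highest for the 6 members that passed the filter, and the groups overlapped for each of them.

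The fitted log2 fold changes, KO over WT, with their standard errors, were 1.72 ± 0.96 for Mir200a, 2.38 ± 1.06 for Mir200b and 0.54 ± 1.22 for Mir200c. They were 1.52 ± 0.67 for Mir182, 3.07 ± 0.97 for Mir183 and 1.32 ± 0.70 for Mir96. These values rest on KO library 1. Without it, they were −0.62, 0.51 and −1.64 for Mir200a, Mir200b and Mir200c, and 0.21, 1.08 and 0.06 for Mir182, Mir183 and Mir96. Without WT library 1, Mir200c had a log2 fold change of 3.66. Without both KO library 1 and WT library 1, a choice made after seeing the data, it had 1.47. Among these fits, Mir200c was thus below 0 only where KO library 1 alone was left out.

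The KO and WT libraries overlapped for all 6 members tested. Over all 8476 genes tested, 3.61% had groups that did not overlap, and over the 181 microRNAs 1.1%. At an adjusted p under 0.05, edgeR called 0 of 8476 footprint genes (0%), with 468 at an unadjusted p under 0.05, and DESeq2 also called 0. The median log2 fold change was 1.62 for the 6 members, 0.20 for the 181 microRNAs and −0.00 for all genes. In the fit without KO library 1 the median of the 6 members was 0.14.

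**Figure D2:**
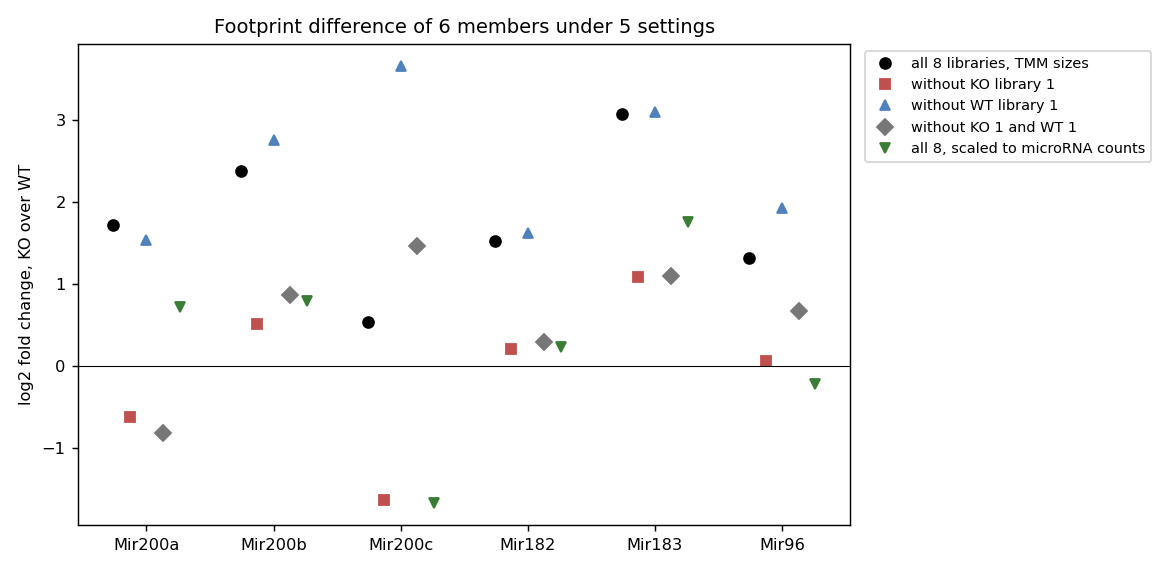
Log2 fold change, KO over WT, of each tested member under different library scalings and with libraries left out. Leaving out KO library 1 brought the median of the 6 members to 0.14, and leaving out WT library 1 brought it to 2.34.

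The excess of KO library 1 was larger for these members than for most microRNAs. The ratio of KO library 1 to the median of the 7 other libraries was 27.6 for Mir200c, 25.8 for Mir183, 23.7 for Mir200b and 18.9 for Mir200a, which were the 4 highest ratios of the 181 microRNAs. It was 7.43 for Mir96 and 6.79 for Mir182, and the median microRNA had 2.04. Mucl2 and Obp1a, the gland genes, had ratios of 14.1 and 12.5, above those of Mir96 and Mir182. Their fitted log2 fold changes, KO over WT, were 1.55 ± 0.95 and 1.57 ± 0.91, beside the median of 1.62 for the 6 members, and their part in the member values was not tested. The ratios describe 1 library, on the TMM scale, where the factor of 0.676 raised every level of KO library 1. The members were chosen by these same counts, so their ranks are no support. KO library 1 was the highest library for 6 of 6 members tested, for 41.4% of the 181 microRNAs and for 17.3% of all genes tested.

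That count depended on the scale. Per 1000000 microRNA counts, KO library 1 was the highest for Mir200a, Mir200b, Mir182 and Mir183, and WT library 1 for Mir200c and Mir96. KO library 1 was then the highest for 5.52% of the 181 microRNAs and WT library 1 for 25.4%. Per 1000000 footprint counts, KO library 1 was the highest for 5 of the 6 members and for 18.2% of the 181 microRNAs. Per 1000000 microRNA counts, the miR-200 family summed to 7292, 467, 2008 and 404 in KO libraries 1 to 4, against 6315, 494, 472 and 1699 in WT libraries 1 to 4. The miR-183 cluster summed to 13249, 2464, 4427 and 1603 in KO libraries 1 to 4, against 7114, 3249, 609 and 2174 in WT libraries 1 to 4. KO library 1 and WT library 1 were the highest libraries of both sums.

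The spread among libraries of 1 genotype was also wide for microRNAs. The within-group SD of log2 CPM was 2.55 for Mir200c and 2.48 for Mir200b, ranks 1 and 2 of 181, against a median of 1.12. It was 2.03 for Mir183 and 1.98 for Mir200a. Mir96 and Mir182, with 1.37 and 1.35, ranked 49 and 52. These ranks are a description too, since the members were chosen by the same counts.

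Within the miR-200 family, the mix of members changed with the library. Mir200c made up 53.1% of the family's counts in WT library 1 (exact 95% binomial interval 50.7% to 55.5%). In the 7 other libraries it made up 2.99% to 18.1%. In KO library 1, where the 6 tested members were high, its share was 10.2% (9.39% to 11.0%), so the 2 libraries with much Mir200c differed in what came with it. The ratio of Mir200c to Mir200b, which share a seed but not a chromosome, was 1.91 in WT library 1 and 0.111 in WT library 3, and it spanned 17.2-fold over the 8 libraries.

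Members of a single locus did not keep a fixed ratio either. The ratio of Mir200a to Mir200b spanned 6.10-fold over the 8 libraries. In the miR-183 cluster, Mir183 made up 53.0% (52.0% to 53.9%), 17.3% (14.7% to 20.1%), 48.1% (45.3% to 50.9%) and 23.3% (20.9% to 25.9%) of the counts in KO libraries 1 to 4. It made up 22.2% (20.4% to 24.1%), 13.6% (12.4% to 14.8%), 38.9% (36.1% to 41.8%) and 31.8% (30.2% to 33.4%) in WT libraries 1 to 4, so the groups overlapped. The ratio of Mir183 to Mir182 spanned 7.13-fold and that of Mir96 to Mir182 8.16-fold.

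**Figure D3:**
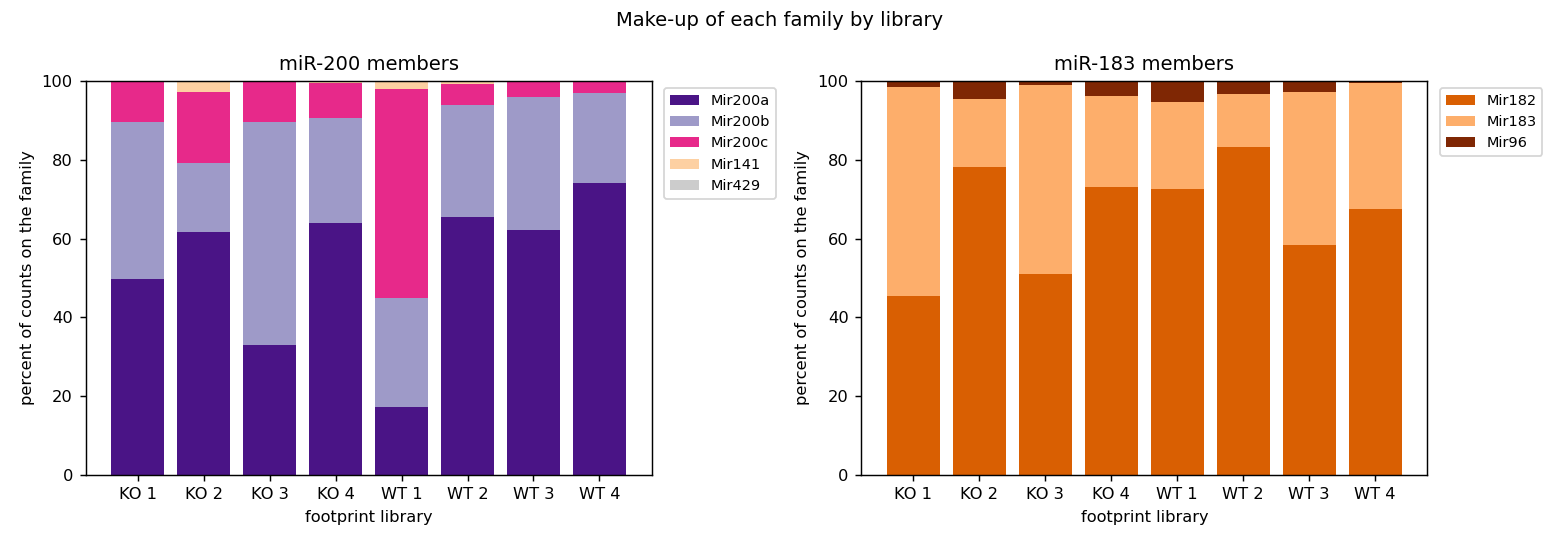
Share of each member in the footprint counts of the miR-200 family and of the miR-183 cluster, per library, KO left of WT. Mir200c reached 53.1% in WT library 1 and Mir183 reached 53.0% in KO library 1.

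Across the 8 libraries, Mir200a and Mir200b correlated at a Pearson r of 0.911 on log2 CPM, and at 0.819 without KO library 1. Mir200b and Mir183, on different chromosomes, had 0.946 and, without KO library 1, 0.911. Mir183 and Mir96 are 116 bases apart and had 0.611 and, without KO library 1, −0.01. These are descriptions over 8 libraries that share depth, scaling and microRNA content. The median over all 16290 pairs of the 181 microRNAs was 0.731, with an upper quartile of 0.866.

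The gland genes followed another order of libraries. Mucl2 had 5138, 760, 365 and 2052 CPM in KO libraries 1 to 4, against 64.9, 2344, 192 and 241 CPM in WT libraries 1 to 4. Obp1a had 2582, 311, 207 and 885 CPM in KO libraries 1 to 4, against 34.9, 1056, 102 and 146 CPM in WT libraries 1 to 4. Both were highest in KO library 1, then in WT library 2 and KO library 4, and both were lowest in WT library 1.

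Beyond KO library 1, the order of libraries differed between the members and the gland genes. In WT library 1, where Mucl2 was lowest, Mir200c reached 514 CPM and the miR-200 family 969 CPM, the third highest sum. In WT library 2, where Mucl2 was second highest, the miR-200 family had 153 CPM, lower than in 6 of the 7 other libraries. The order of the miR-200 sum was KO library 1, KO 3, WT 1, WT 4, WT 3, KO 4, WT 2 and KO 2. The miR-183 sum ran KO library 1, KO 3, WT 4, WT 1, KO 4, WT 2, WT 3 and KO 2, and Mucl2 ran KO library 1, WT 2, KO 4, KO 2, KO 3, WT 4, WT 3 and WT 1. In WT libraries 1, 2 and 4 Mir182 had 792, 835 and 801 CPM, so its highest WT value, in library 2, stood little apart. Its second highest library was KO library 3, with 1227 CPM, where Mucl2 was lowest of the KO libraries.

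Pearson's r was taken between the log2 CPM of Mucl2 and the sum of the members' log2 CPM, not the summed CPM given above. Mir141, with few counts, thus entered like the other members. Against the summed miR-200 members r was 0.04 over the 8 libraries and −0.75 without KO library 1. Against the summed miR-183 members it was 0.49 and, without KO library 1, −0.04. For Obp1a the values were 0.09 and −0.72 against miR-200, and 0.53 and −0.01 against miR-183. Leaving out KO library 1 was a choice made after seeing the data, and the values against miR-183 were then near 0. Without that library, single members gave r with Mucl2 of −0.40 (Mir200a), −0.59 (Mir200b), −0.68 (Mir200c), 0.11 (Mir182), −0.27 (Mir183) and 0.15 (Mir96). Mucl2 and Obp1a kept a ratio of 1.66 to 2.44 in all libraries, a 1.47-fold span, while the ratios within the microRNA families given above spanned 6.10-fold to 17.2-fold.

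**Figure D4:**
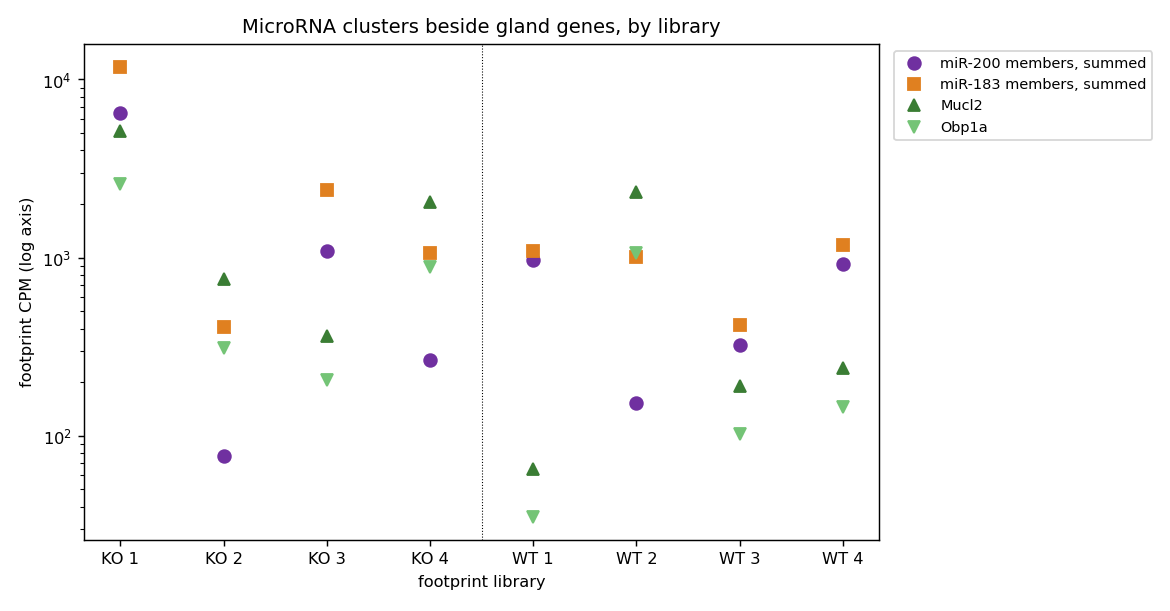
Footprint CPM (log axis) of the summed miR-200 and miR-183 members and of Mucl2 and Obp1a in each library, KO left of WT. All were highest in KO library 1, while WT library 1 was the lowest for both gland genes and the third highest for the miR-200 sum.

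Of 30 gland genes listed, 28 were in the table, 14 had footprint counts and 5 were tested, of which 0 were called. The list summed to 632 to 8240 CPM in KO and 113 to 3680 CPM in WT. Mup4, a major urinary protein, had 340, 53.7, 45.2 and 119 CPM in KO libraries 1 to 4, against 2.22, 188, 16.1 and 22.9 CPM in WT libraries 1 to 4. Its order of libraries was that of Mucl2. In the mRNA libraries Mucl2 and Obp1a had 0 counts, which allows up to 0.0224 CPM for each over all 8, and the gland list summed to 0.590 to 2.10 CPM in KO and 0.906 to 1.92 CPM in WT. No gland gene passed the filter there. The gland level of the mRNA libraries therefore could not be set beside the members by its test.

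Genes of photoreceptors were examined because the miR-183 cluster is abundant in those cells. Gnat1, the rod transducin subunit, had 56.2, 8.27, 16.9 and 14.4 CPM in KO libraries 1 to 4, against 0, 21.6, 2.51 and 2.95 CPM in WT libraries 1 to 4. Its highest libraries, KO library 1 and WT library 2, were those of the gland genes, and the part of photoreceptor RNA in the member levels was not tested.

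The protein-coding markers listed for epithelium in general stayed low. Of 25 listed genes, 22 had footprint counts and only Spint2, a protease inhibitor, passed the filter; its log2 fold change was 0.71 ± 0.30 (adjusted p = 0.881 by edgeR). The list summed to 43.4 to 58.6 CPM in KO and 34.4 to 48.3 CPM in WT. Epcam, a defining adhesion protein of epithelia, had 9.56, 0, 0 and 4.80 CPM in KO libraries 1 to 4, against 0, 0.911, 0 and 0.369 CPM in WT libraries 1 to 4. Krt18, an epithelial keratin, had 14.3, 3.62, 3.76 and 9.61 CPM in KO libraries 1 to 4, against 3.88, 9.71, 2.51 and 1.84 CPM in WT libraries 1 to 4. Both were highest in KO library 1. Cdh1, the junction protein E-cadherin, had 1.20, 2.58, 11.3 and 6.72 CPM in KO libraries 1 to 4, against 2.77, 3.34, 7.88 and 8.85 CPM in WT libraries 1 to 4, and was lowest in KO library 1. Ovol2, a transcription factor of epithelia, had 0, 4.13, 3.76 and 0 CPM in KO libraries 1 to 4, against 2.22, 5.46, 2.51 and 1.48 CPM in WT libraries 1 to 4. Epithelial markers thus did not share 1 order of libraries, and most of these values rest on few counts.

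Other cell types that express members, here of the nose, pituitary, ear and sensory ganglia, gave low sums in footprints. The olfactory epithelium list summed to 26.9 to 41.3 CPM in KO and 22.7 to 34.6 CPM in WT, most of it Adcy3, an adenylyl cyclase found in neurons at large. Pituitary hormone and factor genes summed to 0 to 5.64 CPM in KO and 0 to 2.22 CPM in WT. Hair cell genes summed to 10.8 to 43.2 CPM in KO and 21.8 to 41.2 CPM in WT, with the defining factors Pou4f3, Gfi1 and Atoh1 at 0. Sensory ganglion genes summed to 7.17 to 22.6 CPM in KO and 3.95 to 12.8 CPM in WT. Genes of choroid plexus, an epithelium inside the brain, were not low. They summed to 866.6 to 1320 CPM in KO and 762.5 to 1964 CPM in WT, most of it Ttr. That sum was highest in WT library 1 and was 866.6 CPM in KO library 1. The part of choroid plexus RNA in the member levels was not tested.

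The 3 tested microRNAs of a list of others known from epithelia had a narrower range over the libraries than the tested members. Mir375, of endocrine cells, had 201, 43.4, 73.4 and 117 CPM in KO libraries 1 to 4, against 43.8, 44.3, 65.9 and 73.0 CPM in WT libraries 1 to 4. Mir203, of skin, had 115, 19.6, 102 and 117 CPM in KO libraries 1 to 4, against 98.1, 31.9, 58.8 and 118 CPM in WT libraries 1 to 4. Mir192, the highest of them, had 452 to 1982 CPM in KO and 532 to 1878 CPM in WT. Of 8 such microRNAs listed, 5 had footprint counts, 3 were tested and 0 were called, and Mir205, Mir31 and Mir215 had 0 counts. Mir34b, from a separate list for ciliated epithelium, had a wider range, with 17.6 to 112 CPM in KO and 11.1 to 193 CPM in WT. Mir34c, the other tested microRNA of that list, was higher and had a narrower range than Mir34b. It had 447 to 1940 CPM in KO and 455 to 2246 CPM in WT. Mir143, of smooth muscle, was highest in WT library 1 with 5043 CPM, the library where Mir200c made up most of its family. Mir145a, also tested from the list of blood cell and vessel microRNAs, went the other way. It had 157, 31.0, 113 and 173 CPM in KO libraries 1 to 4, against 63.2, 106, 179 and 148 CPM in WT libraries 1 to 4.

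Genes widely listed as targets of the miR-200 family were examined in both kinds of library. In footprints, 16 of 22 listed genes were tested and 0 were called, with 11 log2 fold changes above 0, 5 below, and a median of 0.03. Zeb2 had 47.8, 44.9, 35.7 and 52.8 CPM in KO libraries 1 to 4, against 39.4, 41.6, 42.3 and 52.8 CPM in WT libraries 1 to 4. In KO library 1, where the miR-200 sum was 6505 CPM, Zeb2 lay within the range of the 7 other libraries. Qk, an RNA-binding protein of glia and the target highest in footprints, had a log2 fold change of 0.23 ± 0.16 (adjusted p = 0.881).

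In the mRNA libraries, which had no part in the choice of members, edgeR called 0 of 16062 genes (0%), with 1713 at an unadjusted p under 0.05. DESeq2 called 94 of 16058, none of them in the lists used here. All 22 miR-200 targets were tested, with 12 log2 fold changes above 0, 10 below and a median of 0.05. Zeb2 averaged 147 ± 22.2 CPM in KO and 152 ± 18.6 CPM in WT (SD, n = 4 each; edgeR adjusted p = 0.927). The lowest adjusted p was 0.408, for Bap1, a deubiquitinase, with 171 ± 7.98 CPM in KO and 150 ± 12.7 CPM in WT (SD, n = 4 each).

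For the miR-183 cluster, 16 of 20 listed targets were tested in footprints and 0 were called, with 9 log2 fold changes above 0, 7 below and a median of 0.04. Foxo3, a transcription factor, gave −0.34 ± 0.20 on the footprint log2 scale (adjusted p = 0.881 by edgeR). In mRNA all 20 were tested and 0 were called, with 13 above 0, 7 below and a median of 0.02. The lowest adjusted p in mRNA was 0.323, for Foxo3 with 101 ± 5.51 CPM in KO and 82.1 ± 9.08 CPM in WT (SD, n = 4 each). Egr1, an activity-induced factor, averaged 434 ± 55.1 CPM in KO and 349 ± 136 CPM in WT (SD, n = 4 each; edgeR adjusted p = 0.67).

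**Figure D5:**
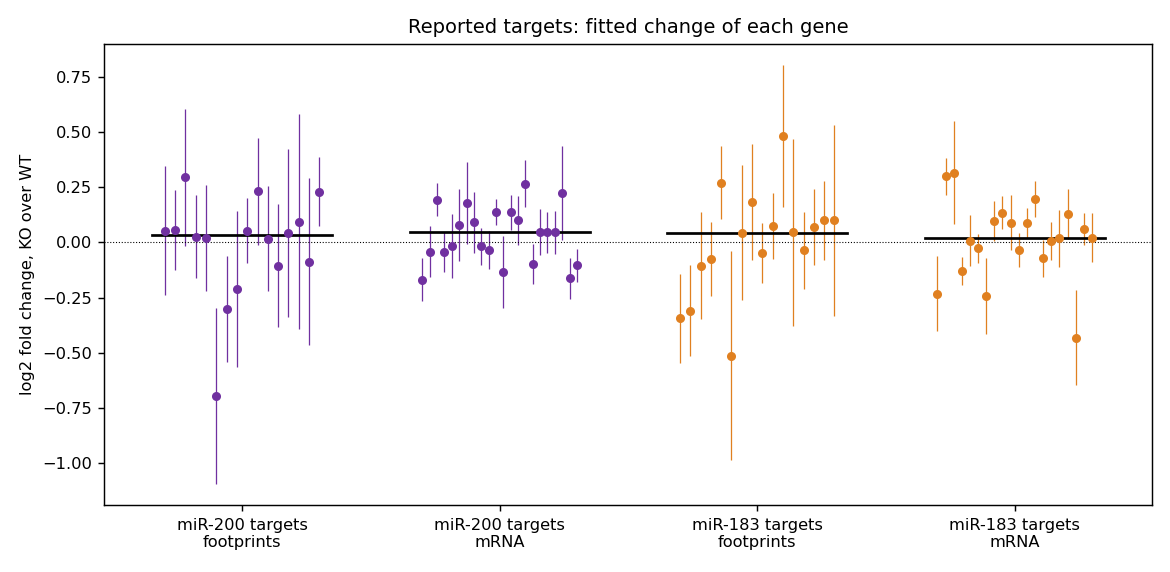
Fitted log2 fold change, KO over WT, of each listed target that was tested, with its standard error, in footprints and in mRNA. Black bars are medians, which lay between 0.02 and 0.05, and no target passed an adjusted p of 0.05.

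The genes most like the members over the 8 footprint libraries were mostly of middling level. By Pearson's r with the summed log2 CPM, the 10 closest to the miR-200 members were all protein-coding, led by Fkbp1a, an immunophilin (r = 0.961, and 0.931 without KO library 1). Ints9 (0.958), Ccdc6 (0.932) and Cacng5 (0.930) followed. Fkbp1a had 179, 102, 139 and 104 CPM in KO libraries 1 to 4, against 150, 104, 115 and 138 CPM in WT libraries 1 to 4, a much narrower span than the members. For the miR-183 members, Lrba (0.946), Appbp2 (0.944) and Arpc2 (0.939) were among the closest, and Mir193b (0.919) was the only microRNA among the 10. These were picked as the highest of all genes tested and are given with no p.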

How the data were processed

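Footprint and mRNA libraries of mouse brain, 4 of each labelled KO and 4 labelled WT, were analysed from 1 gene table and 2 RPKM tables. The deposited counts are whole numbers per Ensembl gene and their totals differ between libraries, so no normalization by the authors is seen in them. The deposited RPKM values were made by the authors from counts and gene length and were used to compare levels between members and, for mRNA, in a limma alternative on log2 RPKM with a pseudocount of 0.1. The submitters' processing notes name TopHat2 and mm10. The counting program, the strand setting, the annotation release and the treatment of reads matching several genes are not given in the sources used here. The gene length in the table is in bases.

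For footprints and for mRNA, edgeR 4.0.16 (R 4.3.3) was run on the counts (filterByExpr with a minimum count of 10, TMM sizes, quasi-likelihood test, KO against WT, no block). The fit covered all genes that passed, and genes were called at 0.05 after Benjamini-Hochberg adjustment. The standard error of a log2 fold change was taken as the size of that change over the square root of its F statistic. It is thus derived from the test and is not an output of the fit. Log2 CPM used a prior count of 2. Shares have exact Clopper-Pearson 95% intervals (SciPy 1.17.1), and the limit for a count of 0 was 3 counts. Alternatives were other scalings, no filter, DESeq2 1.42.0, limma 3.58.1 (mRNA RPKM), a replicate block and leaving out libraries. Tested on simulated data, edgeR recovered 30% of 2-fold and 82% of 3-fold changes in footprints (8476 genes), and 97% and 100% in mRNA (16062 genes). The changed genes were drawn at random from those with a mean above 10 CPM, and 8127 of the footprint genes were protein-coding. Members and gland genes, with larger standard errors, were not simulated as a set, so these rates do not describe them.

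The members, the target and marker lists, the tests and the rule for named genes were chosen with earlier results of these data known. The rule named the 8 members, Mucl2 and Obp1a, up to 4 genes per list by mean CPM, and the 10 genes most like each family. Snap25, Mbp and Nsun5, and the genes named from a list outside that rule (Epcam, Zeb1, Foxo3, Pou4f3, Gfi1, Atoh1, Mir205, Mir31 and Mir215), were chosen after their values were seen. No 2 footprint libraries were identical.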

Additional observations from a re-analysis of the deposited data

Results flagged for a closer look

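A library standing far from the other 3 of its group was found in 8 of 18 groups of 4 libraries. Chance flags about 1 in 20 groups of normally distributed values, but these are skewed CPM of genes chosen by the same footprint counts, so the number of groups is a description and no test. The measure is the gap of the extreme library to its nearest neighbour over the group's range, set against Dixon's 95% critical value for 4 samples. KO library 1 stood high for Mir200a (0.902), Mir200c (0.844) and Mir96 (0.873) among the KO libraries. WT library 1 stood high for Mir200c (0.962) and Mir141 (0.936) among the WT libraries, and WT library 3 stood low for Mir182 (0.927). WT library 2 stood high for Mucl2 (0.923) and Obp1a (0.892) among the WT libraries. The members and the gland genes were thus set apart in different WT libraries, and these groups share libraries and are not independent of each other.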

How the results depend on the processing

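The median log2 fold change of the 6 tested members, KO over WT, was above 0 under every alternative run, from 0.14 without KO library 1 to 2.34 without WT library 1. It was 0.47 when scaled to microRNA counts, 1.08 with total counts and 0.77 without both KO library 1 and WT library 1, a choice made after seeing the data. Mir200c had −1.67 scaled to microRNA counts and −1.64 without KO library 1, against 3.66 without WT library 1 and 1.47 without both. Mir200a had −0.62 without KO library 1 and −0.81 without both. The cause was not tested. Over all genes tested, deviations of same-numbered KO and WT libraries correlated at −0.257 to 0.0725 in footprints and −0.213 to 0.063 in mRNA. These values cannot tell whether equal numbers mark a shared preparation. With a replicate block the members' median was 0.96, and 0 genes were called in either kind of library. In that fit Mir200a had 0.28, Mir200b 0.71, Mir200c 0.97, Mir182 0.94, Mir183 1.41 and Mir96 1.10. Footprint calls, 0 in the fit reported, were 3 with total counts and 86 of 22286 genes with no filter. mRNA calls, also 0, were 24 of 28997 genes with no filter, 94 of 16058 with DESeq2 and 0 to 2 with 1 library left out, the 2 without KO library 4. Leaving out 1 footprint library gave 0 calls each time. Depth limits Mir141, Mir429 and Mir96 most, and KO library 3 is the shallowest at 586392 counts.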
